A study of Mus musculus with 9 samples.

Results

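The SLC25 family comprises carriers, most of which move metabolites, nucleotides, cofactors and ions across the inner membrane of mitochondria. Each is encoded in the nucleus and made in the cytosol, and those of the inner membrane are imported through the outer membrane. In the liver these carriers link pathways on either side of the inner membrane. Among them are fatty acid oxidation, the urea cycle, the malate-aspartate shuttle and the export of citrate for lipid synthesis. The genes described here are those with a symbol of the form Slc25a followed by a number, taken from probe sets that the platform annotation pairs with a single symbol. This gave 43 genes on 90 probe sets, out of 17514 genes on 32801 probe sets.

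Livers of c57Bl/6 mice were profiled on Affymetrix GeneChip arrays. The HFD group (5 arrays) received a Harlan-Teklad high-fat diet with 21% fat and 42% of calories from fat, and the control group (4 arrays) carries the diet label Control. All animals were on chow until the study. No age, sex, genetic change, length of feeding or batch is stated in the labels, and nothing there says that arrays stem from separate animals, so that a p-value measures the spread between arrays, which may be technical.

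The deposited log2 values are differences from a baseline per probe set, by the design text its median over the samples. For Slc25a10 all 5 HFD arrays lay above the baseline and all 4 control arrays below, so it was not the median of these 9 arrays alone. Which samples set it could not be checked. No gene's level can be read or set against that of another gene, and the hepatocyte identity of the tissue could not be checked from levels. Differences between the diets are HFD minus control, in log2 units, with the standard error (SE) of a limma fit to all 17514 genes, and a gene was called at a Benjamini-Hochberg adjusted p under 0.05 over all genes. A carrier that differed in such bulk tissue may reflect more or fewer cells of a type, or more or less RNA per cell, which cannot be told apart.

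Of the 43 carriers, 4 rose in HFD livers and none fell. The risen genes were Slc25a10, the dicarboxylate carrier, Slc25a20, the carnitine and acylcarnitine carrier, Slc25a42, a coenzyme A carrier, and Slc25a40, which in human cells serves glutathione import. They make up 9.30% of the family, against 5.24% of all genes called in either direction (3.37% higher and 1.87% lower). Without adjustment, limma gave a p under 0.05 for 10 of the 43 carriers as higher in HFD and for 1 of the 43 as lower, against 10.3% and 8.78% of all genes. Every HFD array lay above every control array in 6 of the 43 carriers, against 5.62% of all genes, and in no carrier did every HFD array lie below, against 4.2%. The median difference over the family was -0.01, near that of all genes at -0.02, with 18 carriers above 0 and 25 below.

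**Figure D1:**
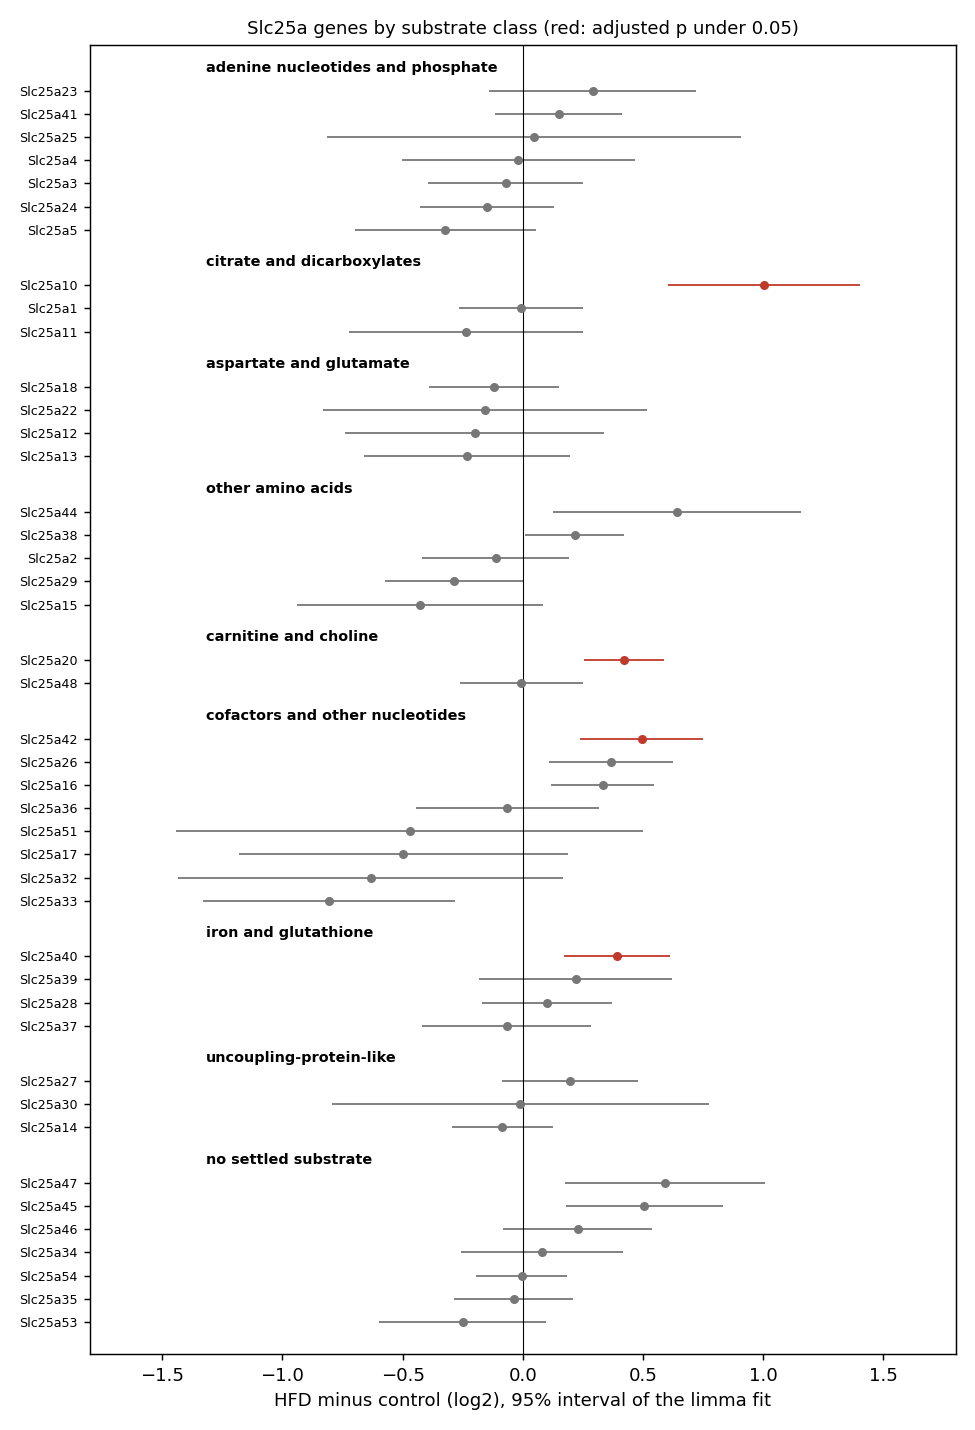
Difference between HFD and control livers (x axis, log2, HFD minus control) for the 43 Slc25a genes, grouped by substrate class, with 95% intervals of the limma fit as bars and genes past an adjusted p of 0.05 in red. The 4 red genes lie to the right of 0 in 4 different classes, and the 43 differences run between -0.81 and 1.00.

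Slc25a10 had the largest difference of the family. This carrier exchanges malate and succinate for phosphate and sulfur anions. It stood at 0.18, 0.17, 0.73, 0.33 and 0.63 in HFD livers, against -0.42, -0.91, -0.88 and -0.17 in control livers. All HFD arrays lay above all control arrays, HFD replicates 3 and 5 were the highest, and control replicates 2 and 3 the lowest. The means were 0.41 ± 0.26 (SD, n = 5) in HFD and -0.59 ± 0.36 (SD, n = 4) in control, a rise of 1.00 ± 0.18 (SE), or 2.0-fold (limma adjusted p = 0.0121). Its other probe set also rose, by 0.80 ± 0.16 (limma adjusted p = 0.0183 over all probe sets), and there too the groups did not overlap.

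Slc25a20 showed a smaller difference with little spread. Its product carries acylcarnitines into the matrix for beta-oxidation in exchange for free carnitine. It stood at 0.12, -0.03, 0.08, 0.12 and 0.03 in HFD livers, against -0.28, -0.41, -0.41 and -0.33 in control livers. The groups were separate, and the SD was 0.07 within each, a spread at the 1.66th percentile of all genes. The rise was 0.42 ± 0.08, or 1.34-fold (limma adjusted p = 0.0117). A second probe set, whose name ends in _s_at and which may also bind related transcripts, differed by 0.28 ± 0.08 and was not called over all probe sets (limma adjusted p = 0.0927), with HFD replicate 5 (-0.0024) just below control replicate 1 (0.0024).

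Slc25a42 stood at 0.46, 0.39, 0.63, 0.03 and 0.47 in HFD livers, against -0.05, -0.16, -0.03 and -0.16 in control livers. HFD replicate 4 lay close to the controls and the other HFD arrays well above them. The rise was 0.49 ± 0.12, or 1.41-fold (limma adjusted p = 0.0365). Its second probe set went the other way, with a difference of -0.15 ± 0.09 (limma adjusted p = 0.435). With both probe sets averaged the difference was 0.17 and was not called (limma adjusted p = 0.154), so that the rise of Slc25a42 rests on a single probe set.

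Slc25a40, measured by 1 probe set, stood at 0.06, 0.22, 0.22, 0.18 and 0.50 in HFD livers, against -0.17, -0.29, -0.06 and -0.11 in control livers. HFD replicate 5 was the highest, and the groups did not overlap. The rise was 0.39 ± 0.10, or 1.31-fold, close to the threshold (limma adjusted p = 0.0488).

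Leaving out arrays in turn divided the 4 genes. Slc25a10 and Slc25a20 were called in all 9 of these fits, with highest adjusted p-values in limma of 0.0460 for each. Slc25a42 was called in 1 of the 9, without HFD replicate 4, and Slc25a40 in 1 of the 9, without HFD replicate 1. The count of 4 higher carriers was 2 without control replicate 1, 3 or 4 or without HFD replicate 2 or 3. It was 3 without control replicate 2 or HFD replicate 1, 4 or 5, and in 2 of these fits the third was a carrier not called when all arrays had equal weight, Slc25a45 without control replicate 2 and Slc25a26 without HFD replicate 5.

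**Figure D2:**
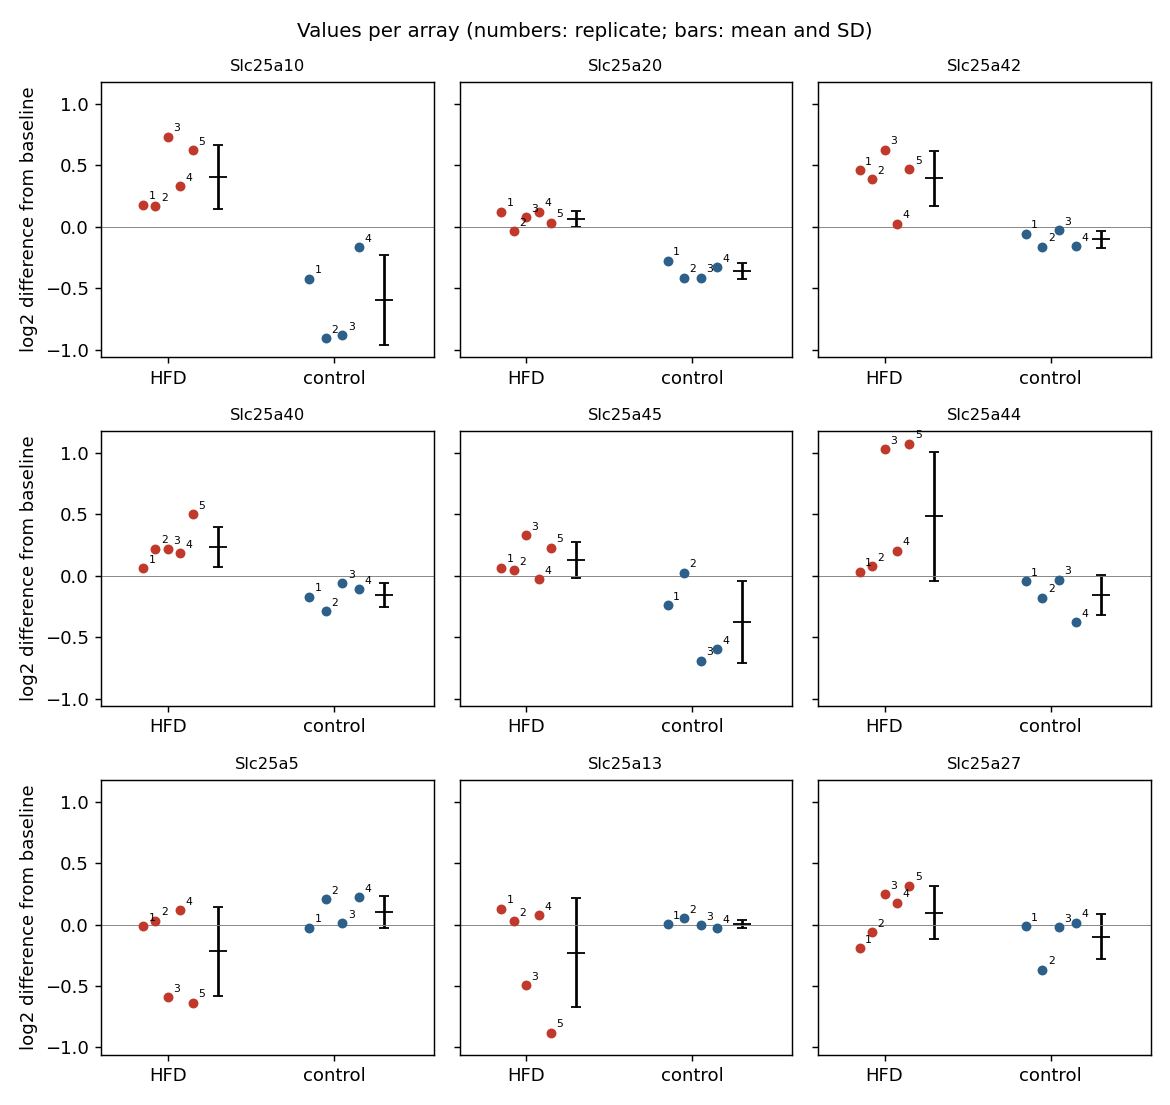
Value of each array (y axis, log2 difference from the probe set baseline) in HFD and control livers for the 4 carriers past the threshold and for the carrier with the lowest p in each class without a call; numbers name replicates, and bars give the mean and SD (n = 5 HFD, n = 4 control). The groups are separate for Slc25a10, Slc25a20, Slc25a42, Slc25a40 and Slc25a44, and HFD replicates 3 and 5 stand apart from the other HFD arrays for Slc25a44, Slc25a5 and Slc25a13.

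**Figure D3:**
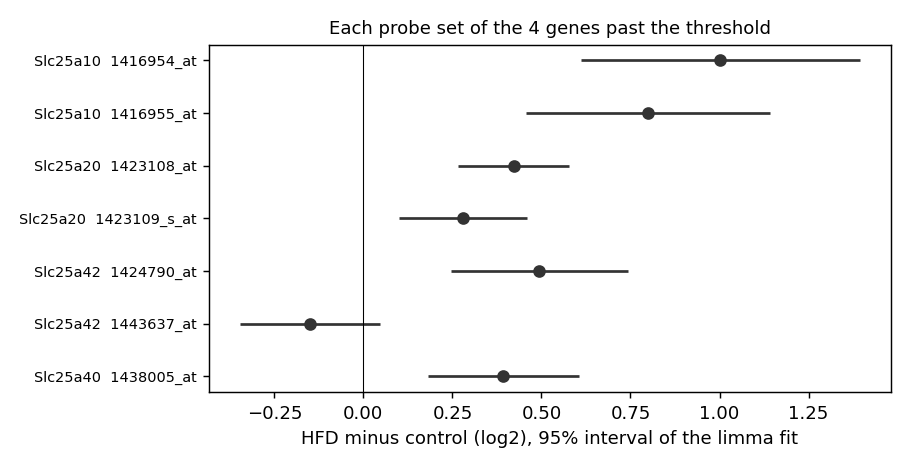
Difference between HFD and control livers (x axis, log2, HFD minus control, 95% interval of the limma fit) for each probe set of the 4 carriers past the threshold. Both probe sets of Slc25a10 and of Slc25a20 lie above 0, while those of Slc25a42 lie on either side, at 0.49 and -0.15.

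The promoters of Slc25a20 and Slc25a10 are shown because these genes stayed called whichever array was left out. The sequences are RefSeq's for GRCm38.p6, both on the plus strand, from 250 bases before to 20 bases after the annotated start. Slc25a20 lies at chr9:108661886-108662155 and Slc25a10 at chr11:120491587-120491856. Capitals mark matches, on either strand, to AGGTCA repeated in the same direction after a spacer of 1 base (any letter), the form bound by nuclear receptors such as PPARA, with at most 2 mismatches among the 12 fixed letters, and to CCGGAAG, the core bound by ETS factors such as GABP, a regulator of many nuclear genes for mitochondria. The letters searched were chosen with these promoters in view.
Slc25a20: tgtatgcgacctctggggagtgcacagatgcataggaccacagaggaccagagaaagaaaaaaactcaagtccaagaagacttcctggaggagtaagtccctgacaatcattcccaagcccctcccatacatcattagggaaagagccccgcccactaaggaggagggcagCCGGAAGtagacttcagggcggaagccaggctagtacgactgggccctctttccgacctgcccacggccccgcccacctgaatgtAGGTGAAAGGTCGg
Slc25a10: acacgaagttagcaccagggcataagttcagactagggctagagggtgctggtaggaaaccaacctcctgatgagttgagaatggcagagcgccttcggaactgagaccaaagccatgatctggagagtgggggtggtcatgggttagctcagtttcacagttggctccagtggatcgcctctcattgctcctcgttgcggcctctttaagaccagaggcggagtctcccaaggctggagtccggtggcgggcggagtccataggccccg
The window of Slc25a20 holds both motifs, which do not overlap. The repeat, AGGTGAAAGGTCG, lies at bases 7 to 19 after the start and differs from the letters searched at 2 positions, and the ETS letters lie at bases 79 to 73 before the start. The window of Slc25a10 holds neither. Promoters were found for 33 of the 43 carriers, which have 42 windows since some have several. Of these windows, 3 (7.14%) had the repeat with at most 2 mismatches (Slc25a20, Slc25a45 and Slc25a47) and none the exact repeat, against 3.47% and 0.0335% of 32851 promoter windows of the same length. CCGGAAG was present in 7 of the 42 windows (16.7%), each of a different carrier, among them Slc25a3 and Slc25a4, against 8.08% of all windows. A match of letters describes the window and says nothing of binding.

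Among carriers of citrate and dicarboxylates, only Slc25a10 of 3 measured genes was called. Slc25a1, the citrate carrier that supplies the cytosol with acetyl units for lipid and sterol synthesis, differed by -0.01 ± 0.12 (95% interval -0.27 to 0.25, limma adjusted p = 0.983). Slc25a11, the oxoglutarate-malate carrier, differed by -0.24 ± 0.22 (limma adjusted p = 0.624). Of 5 measured enzymes around citrate export (Cs, Acly, Aco1, Me1 and Idh1), none was called, and the lowest p was that of Idh1, the cytosolic isocitrate dehydrogenase, at -0.48 ± 0.17 (limma adjusted p = 0.156).

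None of the 4 measured aspartate and glutamate carriers was called, and all had a difference below 0, between -0.23 and -0.12. Slc25a13, the aspartate-glutamate carrier of the liver, stood at 0.13, 0.03, -0.49, 0.07 and -0.88 in HFD livers, against 0.0048, 0.05, -0.0048 and -0.03 in control livers. HFD replicates 3 and 5 were low while the other 3 HFD arrays lay in or just above the control range. The difference was -0.23 ± 0.19 (limma adjusted p = 0.580). Its paralog Slc25a12 differed by -0.20 ± 0.24 (limma adjusted p = 0.720), with 1 of its 3 probe sets above 0. The glutamate carriers Slc25a18 and Slc25a22 differed by -0.12 ± 0.12 and -0.16 ± 0.30 (limma adjusted p-values 0.659 and 0.834). The malate-aspartate and glycerol phosphate shuttles pass reducing power into mitochondria. Of their enzymes, 3 of 6 measured genes were called, against 5.24% of all genes, on a list chosen with earlier results known. Gpd2, the mitochondrial glycerol phosphate dehydrogenase, rose by 1.22 ± 0.19 and Gpd1, its cytosolic counterpart, by 0.83 ± 0.16, with limma adjusted p-values of 0.00583 and 0.0141. Got1, the cytosolic aspartate aminotransferase, fell by 1.18 ± 0.27 (limma adjusted p = 0.0351), with overlapping groups. The mitochondrial Got2 differed by 0.04 ± 0.16 (limma adjusted p = 0.918).

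The carriers of adenine nucleotides and phosphate gave no call among 7 measured genes, and their differences ran between -0.32 and 0.29. Slc25a5, an ADP/ATP carrier, had the lowest p of the class. It stood at -0.01, 0.03, -0.59, 0.12 and -0.64 in HFD livers, against -0.03, 0.21, 0.01 and 0.22 in control livers. HFD replicates 3 and 5 were again the low arrays, and the other HFD arrays lay among the controls. The difference was -0.32 ± 0.17 (limma adjusted p = 0.349), and 7 of its 8 probe sets had a difference below 0. Its paralog Slc25a4 differed by -0.02 ± 0.22, and Slc25a3, the phosphate carrier, by -0.07 ± 0.15 (limma adjusted p-values 0.978 and 0.844). All 3 probe sets of Slc25a4 lay below 0, the others at -0.37 ± 0.17 and -0.35 ± 0.18. Neither of these was called over all probe sets (limma adjusted p-values 0.302 and 0.364). The ATP-Mg/phosphate carriers Slc25a23, Slc25a24, Slc25a25 and Slc25a41 differed by 0.29 ± 0.19, -0.15 ± 0.13, 0.05 ± 0.39 and 0.15 ± 0.12, with the lowest limma adjusted p at 0.471.

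Of 5 measured carriers of other amino acids, none was called. Slc25a44, which in mouse brown fat carries branched-chain amino acids, stood at 0.03, 0.08, 1.03, 0.20 and 1.08 in HFD livers, against -0.05, -0.18, -0.03 and -0.38 in control livers. The groups did not overlap, but the distance came mainly from HFD replicates 3 and 5. The difference was 0.64 ± 0.23 (limma adjusted p = 0.157), and the other 2 of its 3 probe sets gave -0.01 ± 0.12 and 0.08 ± 0.12. Slc25a15, the ornithine carrier of the urea cycle, differed by -0.43 ± 0.23 (limma adjusted p = 0.360), and the related ornithine carrier Slc25a2 by -0.11 ± 0.14. The other probe set of Slc25a15 gave -0.05 ± 0.11. Slc25a29, a carrier of basic amino acids, differed by -0.29 ± 0.13. Its 5 probe sets were divided, with 2 above 0, and gave -0.09 when all were averaged. Slc25a38, a glycine carrier needed for haem synthesis, differed by 0.22 ± 0.09 (limma adjusted p = 0.239). None of the 7 measured urea cycle enzymes was called, with the lowest p for Cps1, the carbamoyl phosphate synthetase, at -0.26 ± 0.11 (limma adjusted p = 0.241).

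In the class of carnitine and choline, Slc25a20 rose and Slc25a48, which carries choline, differed by -0.0064 ± 0.12 (limma adjusted p = 0.985). Of 6 measured enzymes and transporters of carnitine, Crat, the carnitine acetyltransferase, rose by 0.71 ± 0.17 (limma adjusted p = 0.0366) with overlapping groups, and none fell.

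Carriers of cofactors and other nucleotides ran between -0.81 and 0.49. Beside Slc25a42, called higher, 3 further carriers lay near the threshold and are described because of their values. Slc25a16, related to a yeast gene of coenzyme A transport, stood at 0.20, 0.40, 0.11, 0.04 and 0.18 in HFD livers, against -0.25, -0.26, -0.04 and -0.04 in control livers. Its groups did not overlap, and the difference was 0.33 ± 0.10 (limma adjusted p = 0.0796). Slc25a26, the carrier of S-adenosylmethionine, differed by 0.37 ± 0.12 (limma adjusted p = 0.108).

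Slc25a33, a carrier of pyrimidine nucleotides, had the lowest difference of the family. It stood at -0.17, -0.01, -0.21, 0.13 and -0.27 in HFD livers, against 1.01, 0.40, 1.37 and 0.01 in control livers. Control replicate 4 lay within the range of the HFD arrays and the other controls above it. The difference was -0.81 ± 0.24, not past the threshold (limma adjusted p = 0.0819), and without control replicate 4 it was -1.04 and passed (limma adjusted p = 0.0258). Its paralog Slc25a36 differed by -0.06 ± 0.17 (limma adjusted p = 0.889). The remaining members of the class were Slc25a17, a carrier of the peroxisome (-0.50 ± 0.31), Slc25a32, a folate and flavin carrier (-0.63 ± 0.36), and Slc25a51, the NAD carrier (-0.47 ± 0.44), with limma adjusted p-values of 0.435, 0.390 and 0.627. The other probe set of Slc25a17 gave -0.08 ± 0.11. Those of Slc25a32 gave -0.07 ± 0.10 and -0.24 ± 0.29, and those of Slc25a51 -0.59 ± 0.36 and -0.41 ± 0.27.

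Of the 4 carriers of iron and glutathione, only Slc25a40 was called. Slc25a39, its paralog, differed by 0.22 ± 0.18 (limma adjusted p = 0.577), with 4 of its 5 probe sets above 0. Slc25a28 and Slc25a37, the mitoferrins that bring iron into the matrix, differed by 0.10 ± 0.12 and -0.07 ± 0.16. Of 9 measured genes of mitochondrial iron and haem, 3 rose and none fell, against 3.37% and 1.87% of all genes. This list too was chosen with earlier results known. Cpox, the coproporphyrinogen oxidase, rose by 1.16 ± 0.26, Iscu, the scaffold of iron-sulfur clusters, by 0.47 ± 0.08 and Glrx5, a glutaredoxin of cluster transfer, by 0.39 ± 0.09 (limma adjusted p-values 0.0288, 0.0103 and 0.0359). Alas1, the first enzyme of haem synthesis in liver, had the largest difference of these genes in size, -1.27 ± 0.36, and was not called (limma adjusted p = 0.0756). None of 7 measured erythroid markers was called, a list that shares Alas2 with the haem genes.

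The uncoupling-protein-like carriers Slc25a14, Slc25a27 and Slc25a30 gave no call. Slc25a27 stood at -0.19, -0.06, 0.25, 0.18 and 0.31 in HFD livers, against -0.01, -0.37, -0.02 and 0.01 in control livers. The groups overlapped and the difference was 0.19 ± 0.13 (limma adjusted p = 0.462). The 4 probe sets of Slc25a27 were divided, with 2 above and 2 below 0. In 1 of those below 0, picked after its values were seen, all HFD arrays lay below all control arrays, with a difference of -0.26 ± 0.08 (limma adjusted p = 0.109 over all probe sets). Slc25a14 differed by -0.09 ± 0.09 and Slc25a30 by -0.01 ± 0.35. The 5 probe sets of Slc25a30 were divided, with 2 above 0, and gave 0.14 when all were averaged.

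Carriers with no settled substrate gave no call among 7 measured genes, though both with the largest differences were higher in HFD. Slc25a45 stood at 0.07, 0.05, 0.33, -0.03 and 0.23 in HFD livers, against -0.24, 0.03, -0.69 and -0.60 in control livers. Control replicate 2 lay among the HFD arrays. The difference was 0.51 ± 0.15 (limma adjusted p = 0.0814), and 0.64 and past the threshold without control replicate 2 (limma adjusted p = 0.0414). Slc25a47, a carrier found mainly in liver, stood at -0.11, 0.27, 0.39, 0.62 and 0.58 in HFD livers, against 0.02, -0.76, -0.02 and -0.20 in control livers. HFD replicate 1 lay among the controls, and the difference was 0.59 ± 0.19 (limma adjusted p = 0.108). Slc25a46, a protein of the mitochondrial outer membrane, differed by 0.23 ± 0.14, and Slc25a34, Slc25a35, Slc25a53 and Slc25a54 by 0.08, -0.04, -0.25 and -0.0037.

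Some carriers varied more between arrays of the same diet than between diets. Slc25a51, Slc25a25, Slc25a32 and Slc25a30 had the widest spread within groups, with a pooled SD of 0.80, 0.70, 0.65 and 0.64, between the 98.3rd and 99.2nd percentiles of all genes. Slc25a51 stood at -1.01, -0.30, -0.41, 0.36 and 1.20 in HFD livers, against -0.54, 0.30, 1.08 and 0.90 in control livers. Its highest and lowest arrays were both HFD, and each of its 3 probe sets put HFD replicate 5 highest and replicate 1 lowest within the HFD group. Slc25a32 stood at -1.66, -0.85, -0.41, 0.42 and 0.19 in HFD livers, against -0.19, 0.22, 0.36 and 0.29 in control livers. Here too HFD replicate 1 was lowest, and the controls stayed close together. In another probe set of Slc25a32, HFD replicate 2 (-0.59) lay just below HFD replicate 1 (-0.57), and the controls ran from -0.27 to 0.54. In the remaining probe set HFD replicate 1 was again lowest. Slc25a25 stood at -0.10, 1.11, 0.05, 0.99 and -0.05 in HFD livers, against 1.53, -0.14, 0.29 and -0.26 in control livers, with HFD replicates 2 and 4 and control replicate 1 the high arrays. In neither of its other probe sets were these the 3 highest arrays. Slc25a30 was highest in control replicate 2 (1.05) and lowest in HFD replicate 5 (-0.90), and the values of its other arrays lay between -0.62 and 0.70.

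**Figure D4:**
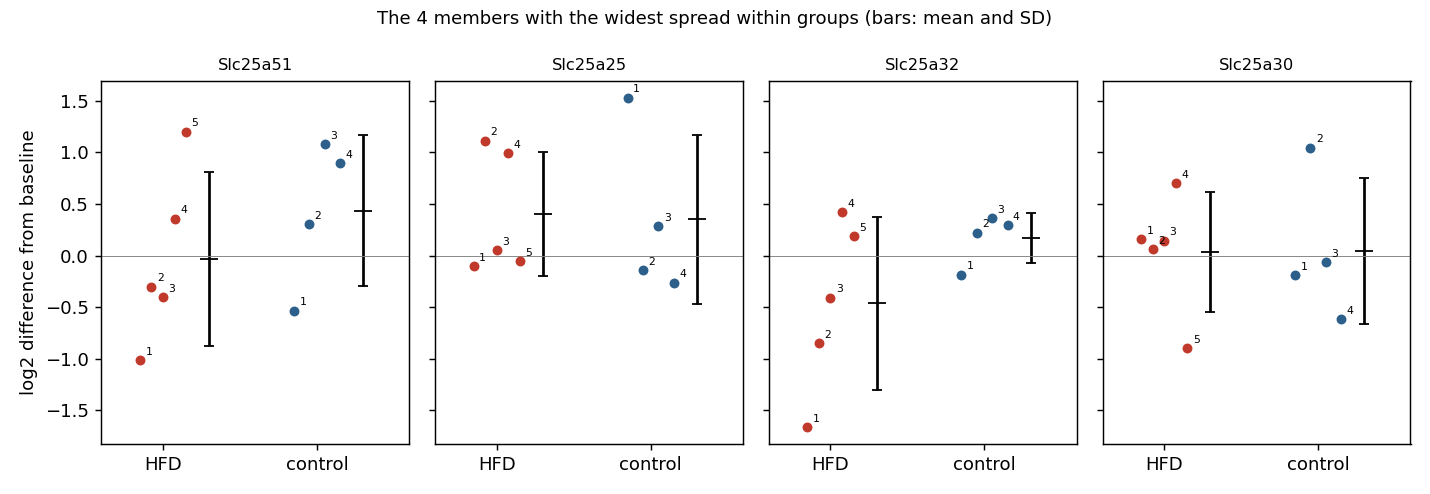
Value of each array (y axis, log2 difference from the probe set baseline) in HFD and control livers for the 4 carriers with the widest spread within groups; numbers name replicates, and bars give the mean and SD (n = 5 HFD, n = 4 control). Slc25a51 runs from -1.01 to 1.20 within the HFD group alone, and the groups overlap in all 4 carriers.

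HFD replicates 3 and 5 ranked both above or both below the other 7 arrays in 19 carriers, a pattern looked for after their values were seen. No gap was required, and for Slc25a42 HFD replicate 5 (0.468) lay just above HFD replicate 1 (0.464). HFD replicates 3 and 5 lay below all other arrays in 9 carriers, or 20.9% against 13.2% of all genes. They lay above all others in 10, or 23.3% against 10.5%. The low carriers included Slc25a11, Slc25a12, Slc25a13, Slc25a15, Slc25a17 and Slc25a5, and the high ones Slc25a10, Slc25a23, Slc25a39 and Slc25a42. These counts use 1 probe set per gene, and of the 5 low and 5 high carriers with several, none showed the pattern in every probe set. In the other probe set of Slc25a10, HFD replicates 3 and 5 were the lowest HFD arrays, at 0.20 and 0.13, and in that of Slc25a15, HFD replicate 5 was the highest HFD array, at 0.24. Slc25a17 stood at 0.04, 0.20, -0.80, 0.06 and -1.42 in HFD livers, against 0.46, 0.12, -0.10 and -0.04 in control livers. Slc25a15 stood at -0.08, 0.04, -0.98, 0.12 and -0.90 in HFD livers, against -0.0095, 0.0095, 0.12 and 0.14 in control livers. In both, the other 3 HFD arrays lay within or close to the control range. Slc25a17, Slc25a15, Slc25a13 and Slc25a11 were picked with both of these arrays lowest. Leaving the arrays out therefore had to raise the differences, and the rise tests nothing. Without HFD replicates 3 and 5 the differences were -0.01 for Slc25a17, -0.04 for Slc25a15, 0.07 for Slc25a13 and 0.10 for Slc25a11. In that fit, Slc25a10 (0.82, limma adjusted p = 0.0438) and Slc25a20 (0.43, limma adjusted p = 0.0322) remained called, and Slc25a42 (0.39) and Slc25a40 (0.31) were not (limma adjusted p-values 0.113 and 0.106). These arrays had the widest spread over all probe sets, with SDs of 0.27 and 0.33 against 0.22 to 0.24 for the other arrays, and their part in the differences of the remaining carriers was not tested.

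**Figure D5:**
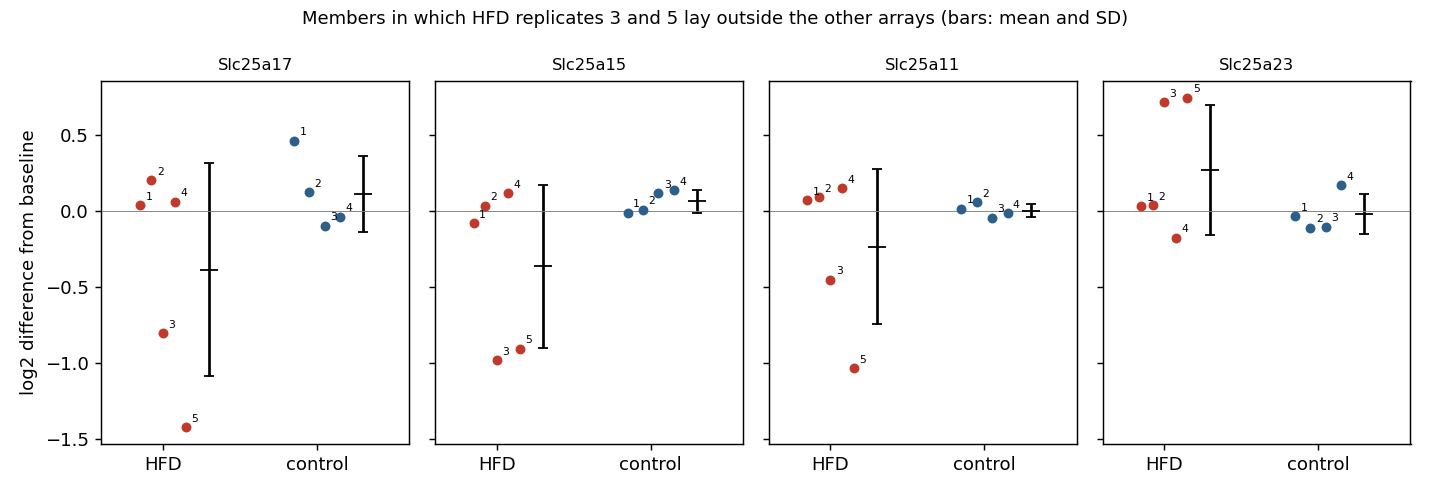
Value of each array (y axis, log2 difference from the probe set baseline) in HFD and control livers for 4 carriers in which HFD replicates 3 and 5 lay outside all other arrays; numbers name replicates, and bars give the mean and SD (n = 5 HFD, n = 4 control). Replicates 3 and 5 lie at the bottom for Slc25a17, Slc25a15 and Slc25a11 and at the top for Slc25a23, where they stand at 0.72 and 0.75.

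Relatives and the import route of the carriers gave few calls. Of the SLC25 proteins under other symbols, Ucp1, Ucp3, Mtch1 and Mtch2 were measured and none was called, the lowest p being that of Mtch1, an outer membrane insertase, at 0.23 ± 0.11 (limma adjusted p = 0.284). None of 14 measured genes of the TOM and TIM complexes and small TIM chaperones that import carriers was called, with the lowest p for Timm13 at 0.17 ± 0.07 (limma adjusted p = 0.239). Of 15 measured genes of other mitochondrial transporters and channels, 1 rose and none fell. It was Sfxn5, a sideroflexin, which rose by 0.84 ± 0.15 (limma adjusted p = 0.0125), and the median difference of that list was 0.20, against -0.02 for all genes.

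Some markers of other cells moved with the diet. Over all genes, 3.37% were called higher in HFD and 1.87% lower, and the marker lists were chosen with earlier results known. Of 12 measured Kupffer cell markers 9 fell, and their mean per array ran from -1.36 to 0.12 in HFD livers, against 0.20 to 1.41 in control livers. Of 10 markers of the sinusoidal endothelium 3 fell, with means from -1.30 to 0.23 in HFD livers and 0.15 to 0.75 in control livers. Of 8 adipocyte markers 2 rose, Cidec and Cidea, lipid droplet proteins that fatty livers also express, and the means ran from 0.44 to 0.74 in HFD livers and from -0.85 to -0.25 in control livers. The other adipocyte markers were not called, and Adipoq (0.03), Lep (0.08), Retn (0.14) and Ucp1 (0.02), among them adipocyte hormones, had small differences beside those of Cidec (2.25), Cidea (1.85), Car3 (3.26) and Plin4 (1.20). Of 11 hepatocyte markers 1 fell, Hnf4a, with means from -0.23 to 0.05 in HFD livers and 0.06 to 0.23 in control livers. No skeletal muscle marker of 10 and no erythroid marker of 7 was called, with means between -0.09 and 0.01 and between -0.05 and 0.08 in HFD livers, against -0.0091 to 0.02 and -0.11 to 0.05 in control livers. The part of these cells in the carrier differences was not tested.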

How the data were processed

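The deposited table holds, per the series' design text, log2 values that the authors summarised with RMA (version not given in the sources used here), quantile normalized and moved to each probe set's median over all samples. That baseline was not always the median of the 9 arrays used here, and which samples set it could not be checked. The log base is inferred from RMA. Of 41842 probe sets, 60 controls were left out. Of the rest, 32801 had 1 symbol, 862 several and 8119 none, and 32614 matched a current gene by Entrez ID, with 0 symbols changed. The probe set with the largest SD over all arrays stood for a gene, which favours larger differences. Of the carriers, 22 had several probe sets, and in 12 of these their signs differed. Slc25a21, Slc25a31, Slc25a43 and Ucp2 were not analysed here.

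HFD was compared with control with limma 3.58.1 in R 4.3.3 (lmFit, eBayes, two-sided, no covariate), over all genes. The fit was also run on simulated data with independent genes and, for each gene, the same spread in all arrays. HFD replicates 3 and 5 had a wider spread than the other arrays, a setting that the simulation did not cover. Centring removes levels, so that no filter on dim probe sets could be set, and the number of arrays limits the precision. Replicates are numbered in order of deposition. Members and lists were chosen with earlier results of these data known. Values on every array are given for each called carrier and for the lowest p of each class without a call. Gene lists name their called genes, or else the lowest p. Other carriers given by array, Got2, Alas1 and the adipocyte markers not called were chosen after their values were seen. Alternatives concerned probe sets, scaling, a filter on variation, moderation, array weights, thresholds and single arrays. Leaving out HFD replicates 3 and 5 was added after seeing the data.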

Additional observations from a re-analysis of the deposited data

Results flagged for a closer look

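In 86 groups of values (43 carriers in HFD and in control), 2 single arrays lay far from the rest of their group by Dixon's test, which flags about 5% of groups by chance. Slc25a27 in control replicate 2 stood at -0.37, and the other control arrays lay between -0.02 and 0.01. Slc25a34 in HFD replicate 5 stood at 0.42, and the other HFD arrays lay between -0.0039 and 0.07.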

How the results depend on the processing

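The count of 4 higher carriers lay between 2 and 3, that of lower carriers, 0 in the reported fit, between 0 and 1, and that of all called genes (5.24% of those tested in the reported fit) between 385 and 996 when arrays were left out in turn. The count of all genes was 385, 474, 568 and 475 without control replicate 2, 3 or 4 or HFD replicate 3. The lower carrier was Slc25a33, without control replicate 4. The unmoderated test called 1 higher carrier (Slc25a20) and 366 genes in all. An adjusted p under 0.01 left 0 higher carriers and 245 genes, and a change of at least 1.5-fold left 1 carrier (Slc25a10) and 596 genes. Without HFD replicates 3 and 5 together, an alternative chosen after seeing the data, 2 carriers were higher. Under the other alternatives the higher count was between 3 and 6, highest with array weights, which added Slc25a16 and Slc25a26, and no carrier was lower. No called carrier changed sign under any of the 22 alternatives, and 20 carriers that were not called did so under at least 1. Several alternatives could not change a sign, since thresholds, the robust and unmoderated tests and the filter on variation reuse the same difference. Fits of each probe set on its own were compared for the same probe set only. The other probe set of Slc25a42, at -0.15, was therefore not among the alternatives. Subtracting array medians or a further quantile normalization left the median difference of all genes at -0.02. No paired analysis was made because the labels name no pairs of arrays across the diets. The causes of these changes were not tested, and 5 against 4 arrays limit the precision of every difference.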
